A study of Homo sapiens with 25 samples.

Results

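The comparison was between DND-41 cells kept at 12.5% of the histidine of full medium (3 libraries) and cells in full, 100% histidine medium (3 libraries), all labelled day 9. These 6 of the 25 libraries of the series were taken by their labels, and each group is the same untreated line with no drug or genetic change named. DND-41 is an established human T-cell acute lymphoblastic leukaemia line, so each value describes 1 line in culture. The other libraries, at 0 to 100% histidine on day 6 or day 9, entered the fit for its estimate of the spread, and the 3 at 25% on day 9 and the 6 at 12.5% and 100% on day 6 were used for direct contrasts.

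Histidine is an essential amino acid that human cells take up through membrane carriers and attach to its tRNA with the synthetase HARS1. When a tRNA is left uncharged the kinase GCN2 can slow translation and raise the transcription factor ATF4, and when amino acids are short in the lysosome the kinase mTORC1 is switched off. SREBP factors drive sterol and fatty acid genes, E2F factors drive DNA replication genes, FOXO factors drive genes of resting cells and HSF1 drives chaperones, and all of these are known to respond to growth or stress signals.

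Normalized counts of the 6 libraries added up to between 14.35 M and 15.7 M, and from 14631 to 15811 genes reached a value of 10 in them. The original read depth is not known from these values. Within a group the log2 values of 2 libraries correlated at between 0.9653 and 0.9721 across genes, and between groups at 0.9537 to 0.9623. The summed keratins KRT8, KRT18 and KRT19, which mark epithelial cells, were between 2.3 and 17.7 in the 6 libraries, while the 25% libraries of day 9 held 788, 5.48 and 1358, so results against 25% are also given without the high ones. The 5.8S rRNA (5_8S_rRNA in the table) was at 157, 360.2 and 251 normalized counts in full medium and 95.8, 138 and 152 at 12.5% (log2 change -0.94 ± 0.57 SE, adjusted p = 0.27), and its part in the results was not tested beyond a fit that holds it as a covariate. Whether replicates came from separate cultures is not stated in the labels, and the spread on which every p-value rests may therefore be technical.

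Changes are log2 differences of normalized counts with 1 added, 12.5% minus 100%, from limma fitted on all 25 libraries, with p-values adjusted by Benjamini-Hochberg over 18799 genes and a threshold of 0.05. "Rose" and "fell" are kept for genes past it. This scale understates the change of low genes. In all, 3916 genes passed, 20.8% of those tested. Of these 1758 rose (9.35%) and 2158 fell (11.5%), and 828 of them moved by more than 1 on the log2 scale (430 up and 398 down) and 184 by more than 2. The list counts against full medium given below stand beside these shares of all genes tested. The median over all genes was 0.03 and the median SE 0.22. After upper-quartile rescaling the split turned, with 52.7% of calls higher against 44.9% here, and the same scaling put the median of all genes at 0.07. The 6 libraries did not overlap, with 12.5% higher, for 18.2% of all genes tested and with 12.5% lower for 18.5%, and among the called genes 3801 of 3916 did not overlap. The bars of list shares show where the calls gathered. The largest shares that fell were in sterol synthesis and DNA replication, and the largest share that rose was in heat shock chaperones, among the 25 lists drawn. As the libraries are bulk RNA scaled to a like size, fewer cells in a state and less RNA per cell cannot be told apart in any of these results.

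**Figure D1:**
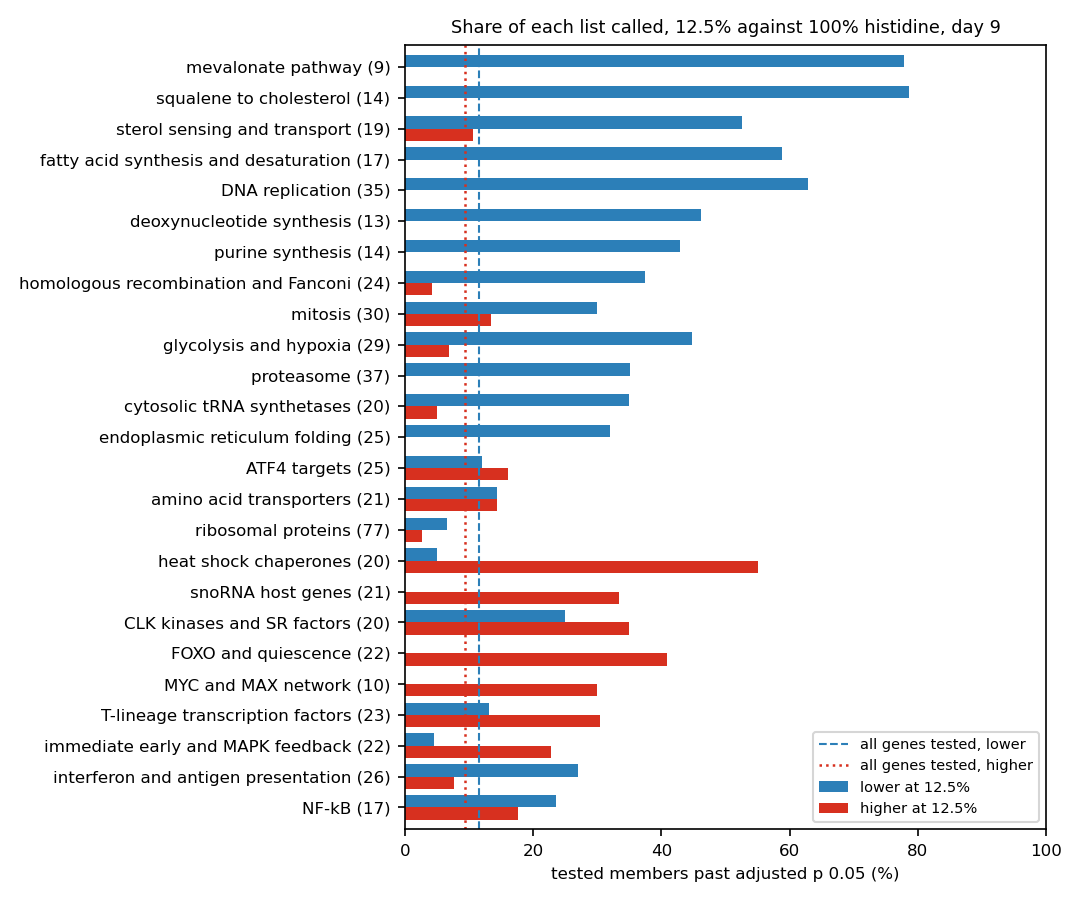
Bars give the percent of tested members of 25 gene lists (number tested in brackets) that fell (blue) or rose (red) at 12.5% against 100% histidine on day 9, with limma at adjusted p 0.05. Dashed and dotted lines mark the share of all genes tested that fell (11.5%) and rose (9.35%). Sterol, fatty acid and replication lists have the longest blue bars, and heat shock and FOXO lists the longest red ones.

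Most genes of sterol synthesis fell, in its early steps and its late ones. Of 9 tested genes of the mevalonate pathway, which builds the isoprenoid unit of sterols, 7 fell and none rose (median change -0.96). After upper-quartile rescaling or quantile normalization 1 of them rose. Of 14 genes from squalene to cholesterol 11 fell and none rose (median -1.14). Among the enzymes of the early steps, MVD was at 1367, 1613 and 1493 normalized counts in the full-medium libraries and 592, 482 and 531 at 12.5% (log2 change -1.48 ± 0.11 SE, adjusted p = 2.18e-09). ACAT2 changed by -1.15, FDPS by -0.96 and MVK by -1.79. None of these genes overlapped between the groups. Later in the pathway, DHCR7, which makes the last double-bond reduction to cholesterol, was at 1756, 2131 and 1948 normalized counts in full medium and 524, 453 and 345 at 12.5% (log2 change -2.16 ± 0.15 SE, adjusted p = 1.69e-09). Every full-medium library lay above every library at 12.5%. CYP51A1 (chromosome 7, 92112151 to 92134803 of GRCh38), the sterol demethylase, had the largest change of the list at -2.61, and TM7SF2, LSS and MSMO1 changed by -1.44, -1.38 and -1.36.

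Of the sterol sensing and transport genes more fell than rose. Of 19 tested, 10 fell and 2 rose (median -0.36). INSIG1, which holds the SREBP precursor in the endoplasmic reticulum, was at 3977, 4367 and 4155 normalized counts in full medium and 1494, 1472 and 1501 at 12.5% (log2 change -1.48 ± 0.09 SE, adjusted p = 4.03e-10). The SREBP genes themselves fell by unlike amounts. SREBF1, whose products favour fatty acid genes, was at 4015, 3339 and 4027 against 1959.8, 1897 and 1628 (log2 change -1.05 ± 0.13 SE, adjusted p = 2.14e-06). SREBF2, whose product favours sterol genes, was at 9989, 8386 and 9424 against 7216, 7691 and 6739.7 (log2 change -0.36 ± 0.08 SE, adjusted p = 0.00318). LPCAT3, which remodels membrane phospholipids, changed by -0.84 and TMEM97, a sterol-regulated membrane protein, by -0.64. The 2 genes that rose were NR1H2, a nuclear receptor for oxysterols, and MBTPS1, a protease that frees SREBP. NR1H2 was at 1144, 910.0 and 1077 against 1786, 1746 and 1841 normalized counts, a log2 change of 0.78 ± 0.11 SE (adjusted p = 1.9e-05), and MBTPS1 changed by 0.33. The panels of sterol genes place each of the 6 libraries beside those of 50% and 25%.

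A sterol regulatory element, searched as TCACNCCAC on both strands, was present in 1.39% of 27305 RefSeq promoters (GRCh38.p14, 250 bases before to 50 after the start). In the sterol and fatty acid lists these letters were found in the promoters of SREBF2 and ACSL1 alone, and their absence elsewhere says only that the letters are not in this window. The stretch of the SREBF2 promoter is shown because this gene fell while coding for a factor known to bind such elements. Its match, in capitals, starts 133 bases before the start of the gene on the plus strand (chr22:41832952-41833000).
SREBF2: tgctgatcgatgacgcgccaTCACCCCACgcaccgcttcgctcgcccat

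**Figure D2:**
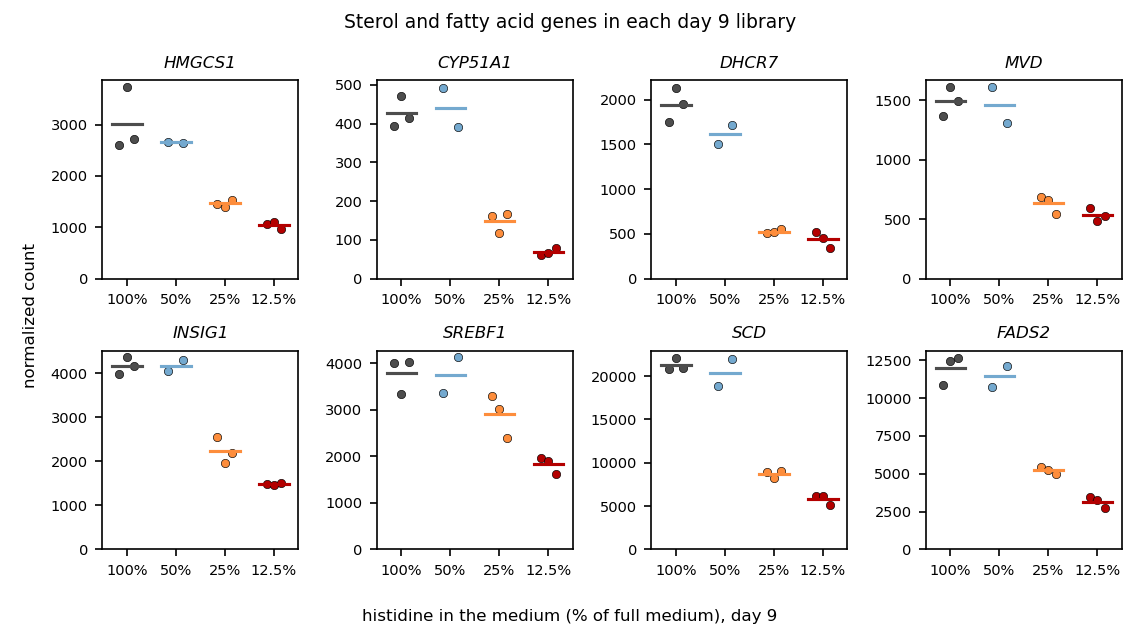
Each point is 1 day 9 library and each bar the mean of its group, with normalized count on the y axis and histidine (% of full medium) on the x axis, for 8 sterol and fatty acid genes. The 12.5% libraries (red) lie under every 100% library (grey) in all 8 panels, and under every 25% library (orange) for HMGCS1, CYP51A1, INSIG1, SREBF1, SCD and FADS2.

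Fatty acid synthesis and desaturation followed the same direction. Of 17 tested genes 10 fell and none rose (median -0.48), with 1 higher after upper-quartile rescaling or quantile normalization. FADS2, the desaturase that begins the making of long polyunsaturated fatty acids, was at 10895, 12440.0 and 12639 normalized counts in full medium and 3464, 3282 and 2756 at 12.5% (log2 change -1.92 ± 0.11 SE, adjusted p = 6.49e-11). FADS1, which acts after it, was at 3949.9, 4059.9 and 3788 against 1601, 1704 and 1584 (log2 change -1.27 ± 0.10 SE, adjusted p = 3.59e-09). Neither desaturase overlapped between groups. ACACA, the carboxylase that commits acetyl-CoA to fatty acids, changed by -1.14, and FASN, the synthase, was at 7325, 9689 and 8213 against 4080.5, 4393 and 3779 (log2 change -1.03 ± 0.10 SE, adjusted p = 1.49e-07). ACSL1, which activates fatty acids, changed by -1.58 and SCD, the stearoyl-CoA desaturase, by -1.88.

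Most DNA replication genes fell, with small to moderate changes. Of 35 tested, 22 fell and none rose (median -0.40). After upper-quartile rescaling or quantile normalization, or with library weights, 1 rose. Every subunit of the MCM2 to MCM7 helicase, which unwinds DNA at the fork, fell, from -1.35 for MCM2 to -0.38 for MCM4. MCM5 was at 9332, 9785 and 10296 normalized counts in full medium and 6143, 5697 and 5520.5 at 12.5% (log2 change -0.76 ± 0.11 SE, adjusted p = 1.9e-05). RFC3, a subunit of the loader of the sliding clamp, was at 719, 962 and 802 against 419, 478 and 406 (log2 change -0.92 ± 0.11 SE, adjusted p = 3.33e-06), and RFC2 of the same loader changed by -0.86. FEN1, the flap endonuclease that finishes lagging-strand fragments, was at 3742, 4164 and 3889 against 2224, 2241 and 2039 (log2 change -0.86 ± 0.10 SE, adjusted p = 2.83e-06). Each of these genes was lower in all 3 libraries at 12.5% than in any in full medium. GINS2, a part of the active helicase, changed by -0.73 and the chromatin assembly factor CHAF1B by -0.70.

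E2F sites were common in these promoters whether or not the gene fell. The letters TTTNNCGC, on either strand, were present in 18 of the 29 replication genes with a RefSeq promoter (62.1%), in 12.8% of the 11453 tested genes that have one and in 8.23% of all promoters. They were in 11 of 18 that fell and in 7 of 11 that were not called. Stretches of 4 promoters are shown for their E2F letters, in capitals, with MCM6 and MCM3 chosen as helicase subunits that fell by 0.58 and 0.56 on the log2 scale and GINS2 and RFC3 as partners of the fork. MCM6 (chr2:135876502-135876615, minus strand) holds 4 overlapping matches in 2 blocks, MCM3 (chr6:52284865-52284936, minus strand) holds 2, and GINS2 (chr16:85688958-85689005, minus strand) and RFC3 (chr13:33818074-33818121, plus strand) hold 1 each.
MCM6: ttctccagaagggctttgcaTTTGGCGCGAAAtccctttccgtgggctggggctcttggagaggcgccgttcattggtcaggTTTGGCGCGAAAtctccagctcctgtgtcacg
MCM3: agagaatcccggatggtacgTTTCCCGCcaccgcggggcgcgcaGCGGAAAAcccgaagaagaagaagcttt
GINS2: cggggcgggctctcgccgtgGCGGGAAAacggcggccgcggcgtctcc
RFC3: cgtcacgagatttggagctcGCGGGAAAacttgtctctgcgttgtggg

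Genes that make the building blocks of DNA and RNA fell in part. Of 13 tested genes of deoxynucleotide synthesis 6 fell and none rose (median -0.14), and of 14 genes of purine synthesis 6 fell and none rose (median -0.32). In purine synthesis 1 gene rose in some other fits, among them both rescalings and that without 12.5% replicate 3. TYMS, which makes thymidylate, was at 11717, 12135 and 12131 normalized counts in full medium and 5760.1, 5162 and 5505 at 12.5% (log2 change -1.13 ± 0.12 SE, adjusted p = 5.44e-07). TK1, the salvage kinase for thymidine, was at 3287, 3482 and 3635 against 2112, 1861 and 2118 (log2 change -0.77 ± 0.16 SE, adjusted p = 0.000969). Both were lower in every library at 12.5%. CTPS1, the CTP synthase that proliferating lymphocytes need, changed by -0.67 and CAD, which starts pyrimidine synthesis, by -0.40. In the guanine branch of purine synthesis GMPS was at 3366, 3279 and 3181 against 1998, 1889 and 1903 (log2 change -0.76 ± 0.09 SE, adjusted p = 2.7e-06) and IMPDH2 changed by -0.75. In serine and one-carbon metabolism 4 of 14 fell and none rose, with AHCY, which clears the by-product of methylation, at -0.92 and MTHFD1, a folate enzyme, at -0.85. After quantile normalization 1 gene of this list rose. Of 24 genes of homologous recombination and the Fanconi pathway 9 fell and 1, FANCI, rose by 0.29 on the log2 scale. RMI2, a partner of the BLM helicase, changed by -1.11, FANCD2 by -0.86, BLM by -0.82 and BRCA1 by -0.75.

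Mitotic genes changed in both directions against full medium, more often downwards, and were lower than at 25% histidine. Of 30 tested mitotic genes 9 fell and 4 rose against full medium (median -0.15), beside 11.5% and 9.35% of all genes tested. AURKB, the kinase of the chromosomal passenger complex, was at 3252, 3142 and 3069.7 normalized counts in full medium and 1263, 1191 and 1228 at 12.5% (log2 change -1.36 ± 0.13 SE, adjusted p = 1.12e-07). Its partners CDCA8 and INCENP changed by -0.74 and -0.56, and CCNB1, the cyclin of mitotic entry, by -0.89. The 4 that rose were ANLN, NUSAP1, CCNB2 and TPX2, named after their values were seen because they are few. ANLN, a scaffold of the cleavage furrow, changed by 0.46 and NUSAP1, a spindle protein, by 0.55. Without 12.5% replicate 1 only 2 rose, since CCNB2 (adjusted p = 0.0601) and TPX2 (adjusted p = 0.121) lost their calls. TPX2 also lost it without 100% replicate 1 (0.116) or 3 (0.166) or 12.5% replicate 2 (0.136) or 3 (0.053), and kept it without 100% replicate 2 (0.042). MKI67, the common marker of dividing cells, was at 20277, 19796 and 20436 against 16991, 22677 and 19148 (log2 change -0.05 ± 0.15 SE, adjusted p = 0.861).

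Against 25% histidine on day 9, where 2.4% of all genes tested were higher at 12.5% and 4.42% lower, all 30 mitotic genes were lower at 12.5% (median -0.84). PLK1, the polo kinase of mitosis, was at 6038, 7349 and 7196 normalized counts in the 25% libraries against 2427, 1981 and 1835 at 12.5% and 2242, 2339.6 and 2222 in full medium. The 25% libraries thus stood above both other groups, which overlapped each other. Its log2 difference from 25% was -1.73 ± 0.14 SE (adjusted p = 5.98e-08) and that from full medium -0.13 (adjusted p = 0.575). CDC20, the activator of the anaphase-promoting complex, differed by -1.42 from 25% and by -0.15 from full medium (adjusted p = 0.519), and CCNB1 by -1.78 and -0.89. The median of the mitotic list in each library, as a log2 difference from the mean of the full-medium libraries, was 0.65, 0.80 and 0.80 at 25% and -0.15, -0.19 and -0.23 at 12.5%. The replication list had no such peak, with -0.20, -0.12 and -0.11 at 25% and -0.45, -0.42 and -0.42 at 12.5%. Of the 25% libraries replicates 1 and 3 were high in keratin, and without them 23 of the 30 mitotic genes were still lower at 12.5%, against 1 library.

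**Figure D3:**
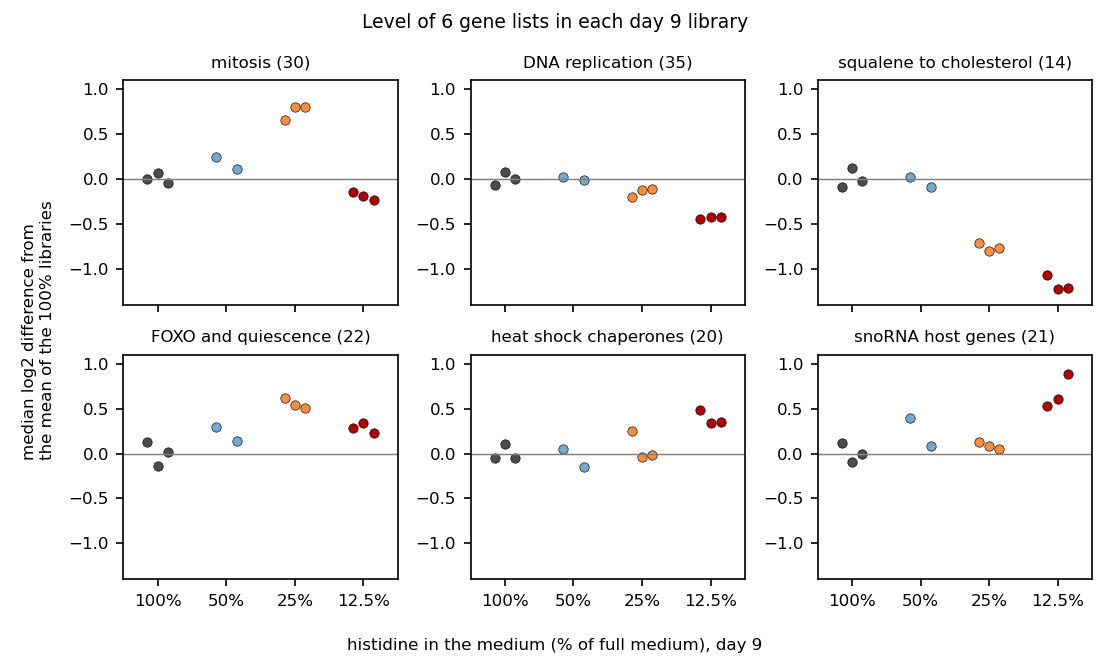
Each point is 1 day 9 library, and the y axis gives the median over a list of log2 differences from the mean of the 100% libraries, for 6 lists (number of genes in brackets) by histidine (% of full medium). Mitotic genes peak at 25% (0.65 to 0.80) and lie just under 0 at 12.5%, while replication and sterol genes are lowest at 12.5%.

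Regulators of entry into the cell cycle changed in both directions. Of 23 tested genes of G1 cyclins, E2F factors and inhibitors 3 rose and 3 fell (median -0.04, and 0.00 after upper-quartile rescaling), beside 20.8% of all genes tested that passed in either direction. The inhibitor genes CDKN1A and CDKN1B did not pass, at -0.19 ± 0.13 SE (adjusted p = 0.341) and -0.12 ± 0.09 SE (adjusted p = 0.411), while CDKN2D, an inhibitor of the cyclin D kinases, rose from 589 ± 144 to 931 ± 46.5 normalized counts (mean ± SD, n = 3; log2 change 0.69 ± 0.16 SE, adjusted p = 0.00264). CCND2, which codes for cyclin D2, was listed at 0 in all 3 full-medium libraries and at 78, 24.8 and 9.16 at 12.5% (adjusted p = 0.00287), so no fold is given. E2F1, a driver of replication genes, changed by -0.35.

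The ATF4 program, which answers uncharged tRNA in many cells, was not raised as a group. Of 25 tested ATF4 targets 4 rose and 3 fell (median 0.08), beside 9.35% and 11.5% of all genes, and without 100% replicate 3 only 2 rose. ASNS, the asparagine synthetase often used as a reporter of this pathway, was at 68.5, 24.3 and 14 normalized counts in full medium and 21.5, 44 and 52.9 at 12.5% (log2 change 0.35 ± 0.69 SE, adjusted p = 0.788). CHAC1, which breaks down glutathione, had a change of 0.35 ± 0.17 SE (adjusted p = 0.161). The groups overlapped for ASNS. DDIT3, the stress factor CHOP, was at 646, 566 and 528 against 437, 352 and 407 (log2 change -0.54 ± 0.11 SE, adjusted p = 0.00119), and ATF5 changed by -0.84. TRIB3, a pseudokinase that curbs the pathway, fell by 0.33 on the log2 scale (adjusted p = 0.031), and its call ended without 100% replicate 1 (adjusted p = 0.158) or 3 (0.0653) or 12.5% replicate 2 (0.142) or 3 (0.0713). In the other direction SLC7A11, the cystine carrier, changed by 0.56 and PPP1R15A, which restores translation after stress, by 0.65. An ATF4 composite site, searched as TGATGNAAN on both strands, was in 5 of 20 of these promoters (25.0%) and in 2.71% of the promoters of tested genes. Of the 5, only that of CEBPG belonged to a gene that rose and 4 to genes that were not called.

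Of the genes that handle histidine itself, LHPP and HARS1 fell. Of 16 tested genes that carry, charge, modify or break down histidine 2 fell and none rose, beside 11.5% of all genes that fell, and 1 rose after upper-quartile rescaling or quantile normalization. LHPP, a phosphatase for phosphohistidine, was at 366, 280.3 and 351 normalized counts in full medium and 164, 179 and 114 at 12.5% (log2 change -1.14 ± 0.16 SE, adjusted p = 2.5e-05). HARS1 was at 950.4, 1147 and 1060.0 against 915, 869.8 and 797 (log2 change -0.29 ± 0.09 SE, adjusted p = 0.0228), and its call ended without 100% replicate 2 (adjusted p = 0.128) or 3 (0.0661) or 12.5% replicate 3 (0.112), so that 1 gene was left without 100% replicate 2 or 12.5% replicate 3. Of 20 cytosolic tRNA synthetases 7 fell and 1 rose (median -0.18), a larger share than that of all genes, and 3 rose after either rescaling. QARS1, for glutamine, changed by -1.30, FARSB, for phenylalanine, by -0.71 and AARS1, for alanine, by -0.50, while TARS1, for threonine, rose by 0.40 on the log2 scale. Among 21 amino acid transporters 3 rose and 3 fell, beside 9.35% and 11.5% of all genes tested, with 5 higher after quantile normalization. SLC3A2, the heavy chain shared by several carriers, changed by 0.76 and SLC38A5, which can carry histidine and glutamine, by -0.72. Of 37 genes that sense amino acids upstream of mTORC1, 2 rose and 4 fell, under the share of all genes both ways. Without 100% replicate 2 or 12.5% replicate 3 only 2 fell. The balance turned with the scaling, to 5 higher and 2 lower after upper-quartile rescaling and 4 higher and 2 lower after quantile normalization. MIOS, a part of the GATOR complex, was at 324, 345 and 365 against 167, 160.5 and 148 (log2 change -1.12 ± 0.13 SE, adjusted p = 1.63e-06). FNIP1, a partner of folliculin, and CASTOR2, of the family that includes the arginine sensor, changed by 0.66 and 0.58.

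Many heat shock chaperones rose, while some folding genes of the endoplasmic reticulum fell. Of 20 tested heat shock genes 11 rose and 1 fell (median 0.42). HSPH1, a partner that reloads HSP70, was at 2110.4, 2409 and 2145 normalized counts in full medium and 3998, 3751 and 3516 at 12.5% (log2 change 0.76 ± 0.14 SE, adjusted p = 0.000424). HSP90AA1, the inducible HSP90, was at 22218, 32171 and 21520.0 against 37894, 34983 and 35786 (log2 change 0.54 ± 0.14 SE, adjusted p = 0.00547). All 3 libraries at 12.5% were above the 3 in full medium for both genes. HSPA1B, an inducible HSP70, changed by 1.08, though it has a near-identical copy and its own level is uncertain, and DNAJB1, its co-chaperone, changed by 0.61. BAG3, a co-chaperone of selective autophagy and itself a known heat shock target, was the gene that fell, from 465, 467 and 482 to 261, 287 and 257 (log2 change -0.81 ± 0.09 SE, adjusted p = 1.61e-06). HSF1, the factor that drives this group, changed by 0.33. The number that rose was 6 without 100% replicate 3, 7 without 12.5% replicate 1 and 7 when 5.8S rRNA entered the fit.

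The heat shock element, searched on both strands as GAA, any 2 bases, TTC, any 2 bases and GAA, was present in 6 of the 19 chaperone promoters (31.6%) and in 0.471% of those of tested genes (0.608% of all). It was in 4 of 10 that rose and in 2 of 8 that were not called. The upstream part of the HSP90AA1 promoter (chr14:102087045-102087294, minus strand) is shown whole because the gene rose and holds 1 match, 88 bases before its start. The stretch of HSP90AB1 (chr6:44247758-44247863, plus strand) is shown as the constitutive HSP90, with 2 matches that start 165 and 112 bases before its start. HSP90AB1 changed by 0.41 ± 0.13 SE (adjusted p = 0.0221), the groups overlapped, and its call ended without 100% replicate 1 (adjusted p = 0.142) or 3 (0.108) or 12.5% replicate 1 (0.0979). Capitals mark the matches.
HSP90AA1: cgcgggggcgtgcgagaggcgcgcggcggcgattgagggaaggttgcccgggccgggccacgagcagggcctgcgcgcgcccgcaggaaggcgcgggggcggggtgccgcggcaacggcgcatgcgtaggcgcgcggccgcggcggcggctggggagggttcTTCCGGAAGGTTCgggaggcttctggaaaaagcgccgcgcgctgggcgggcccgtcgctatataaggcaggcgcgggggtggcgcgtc
HSP90AB1: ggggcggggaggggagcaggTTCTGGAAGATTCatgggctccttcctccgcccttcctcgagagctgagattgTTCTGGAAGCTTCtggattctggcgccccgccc

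Of 25 tested folding genes of the endoplasmic reticulum 8 fell and none rose (median -0.18). After upper-quartile rescaling or quantile normalization 1 rose, and 2 rose without 100% replicate 1. The number that fell was 5 without 100% replicate 2 and 4 without 12.5% replicate 2 or 3. HSPA5, the main HSP70 of that compartment, was at 5971, 5371 and 5219 normalized counts in full medium and 4467, 4076 and 3864 at 12.5% (log2 change -0.42 ± 0.10 SE, adjusted p = 0.00439), and SEL1L, which helps misfolded proteins leave it, changed by -0.41. Some proteasome genes also fell, with 13 of 37 lower and none higher (median -0.25), and 8 lower without 12.5% replicate 2. PSMC4, an ATPase of the regulatory cap, was at 1326, 1449 and 1256 against 578, 312 and 499 (log2 change -1.58 ± 0.16 SE, adjusted p = 3.36e-07). PSMD2, a scaffold of the same cap, changed by -1.41 and PSMA3, a subunit of the core, by -1.12. Of 28 lysosome and autophagy genes 3 rose and 4 fell, beside 9.35% and 11.5% of all genes tested. No more than 2 fell without 100% replicate 2 or 12.5% replicate 2 or 3 (1 for the last), and 1 rose without 100% replicate 2 or 3.

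Many genes of glycolysis fell, and the oxygen sensor EGLN3 had the largest change of the list. Of 29 tested genes of glycolysis and the hypoxia response 13 fell and 2 rose (median -0.49). EGLN3, an oxygen-dependent hydroxylase of HIF, was at 475, 387 and 477 normalized counts in full medium and 174, 138 and 187 at 12.5% (log2 change -1.42 ± 0.17 SE, adjusted p = 1.66e-06). TPI1, a triose isomerase, was at 6356, 7742 and 6928 against 3921, 3123 and 3429.5 (log2 change -1.01 ± 0.14 SE, adjusted p = 2.11e-05), and GPI, PFKL and HK1, which act at the head of the pathway, changed by -0.98, -0.81 and -0.78. KDM3A, a histone demethylase and known hypoxia target, went the other way and rose by 0.81 on the log2 scale (adjusted p = 3.49e-08). The other gene that rose, HIF1A, changed by 0.30 and lost its call without 12.5% replicate 2 (adjusted p = 0.0539). Among 34 nuclear genes of the respiratory chain 9 fell and none rose (median -0.25), with 4 lower without 12.5% replicate 2. CYC1, a cytochrome of the third complex, was at 2944, 3232 and 3341 against 1268, 981 and 1237 (log2 change -1.46 ± 0.15 SE, adjusted p = 4.28e-07). Some mitochondrially encoded genes rose instead, with 3 of 13 higher and none lower (median 0.44), and 9 higher without 12.5% replicate 3, whose list median of -0.02 set it apart from the 0.52 and 0.75 of the other 12.5% libraries. This list median also varied within other groups, at -0.26, -0.02 and 0.26 in full medium and 0.49 and -0.32 at 50%. MT-ND1 and MT-ND3, subunits of the first complex, changed by 0.78 and 0.74. Of 19 tested NRF2 and glutathione genes 3 rose and 2 fell (median -0.04), beside 9.35% and 11.5% of all genes tested. The 2 that fell were the pentose phosphate enzymes TKT and PGD, by 0.83 and 0.78 on the log2 scale. The 3 that rose were SLC7A11, the cystine carrier, by 0.56, TXNRD1, a thioredoxin reductase, by 0.29 and NFE2L2, which codes for NRF2, by 0.28. Of these only SLC7A11 still passed when 100% replicate 1 or 3 or 12.5% replicate 1 or 2 was left out, and 4 genes fell without 100% replicate 1.

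Cytosolic ribosomal protein genes were rarely called. Of 77 tested 2 rose and 5 fell, under the share of all genes, with a median of 0.02. The number that rose was 4 after upper-quartile rescaling, 6 after quantile normalization and 4 with library weights, where 9 fell. The number that fell was between 1 and 5 when any 1 of the 6 libraries was left out, down to 1 without 12.5% replicate 2 or 3, and 3, 2 and 2 without 100% replicates 1, 2 and 3. Many of these genes have near-identical processed copies, so their levels are uncertain. In ribosome biogenesis 8 of 31 fell and 3 rose, beside 11.5% and 9.35% of all genes tested. Only 1 rose without 100% replicate 1 or 3. FBL, which methylates ribosomal RNA, changed by -0.64 and WDR12, of a complex for the large subunit, by -0.65. Among 34 factors of translation initiation and elongation 5 rose and 3 fell, beside 9.35% and 11.5% of all genes tested. After upper-quartile rescaling 8 rose. EIF5 was at 1959.7, 1918 and 1865 normalized counts in full medium and 3424, 3129.6 and 3261 at 12.5% (log2 change 0.77 ± 0.08 SE, adjusted p = 5.15e-07). EIF2B1, a subunit of the exchange factor that GCN2 signalling blocks, was at 1471, 1735 and 1794 against 1039.5, 1061 and 1066 (log2 change -0.65 ± 0.09 SE, adjusted p = 9.96e-06), while EIF2S1, the subunit that GCN2 phosphorylates, changed by 0.54.

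Several hosts of small nucleolar RNAs rose. These genes are spliced and then decayed in the cytoplasm when translation is active, and their introns give the small RNAs that guide ribosomal RNA modification. Of 21 tested 7 rose and none fell (median 0.59). SNHG12 (chromosome 1, 28578538 to 28583132 of GRCh38) had the largest change of the list at 3.03 ± 0.30 SE. SNHG5 was at 346, 211 and 323 normalized counts in full medium and 849.7, 841 and 764 at 12.5% (log2 change 1.51 ± 0.16 SE, adjusted p = 5.53e-07). GAS5, known to build up when growth stops, was at 2290.1, 1991 and 2099.7 against 4742, 3242 and 3907 (log2 change 0.88 ± 0.16 SE, adjusted p = 0.000384). Every library at 12.5% was above those in full medium for the 3 genes. ZFAS1 changed by 0.97, SNHG29 by 1.43 and SNHG3 by 0.67. The list median per library was 0.53, 0.61 and 0.88 at 12.5% and 0.13, 0.09 and 0.05 at 25%. At 50% the 2 libraries were apart, at 0.39 and 0.08.

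Splicing kinases of the CLK family were also among the genes that rose. Of 20 tested CLK kinases and SR factors 7 rose and 5 fell, beside 9.35% and 11.5% of all genes tested. CLK1, which phosphorylates SR splicing factors and whose own RNA is held back in the nucleus until needed, was at 585, 376 and 409 normalized counts in full medium and 1319.8, 1351 and 1342 at 12.5% (log2 change 1.58 ± 0.20 SE, adjusted p = 6.62e-06). CLK3 changed by 0.61 and the splicing regulator TRA2A by 0.60, while the SR factor SRSF2 fell by 0.58 on the log2 scale and the kinase SRPK2 by 0.51.

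**Figure D4:**
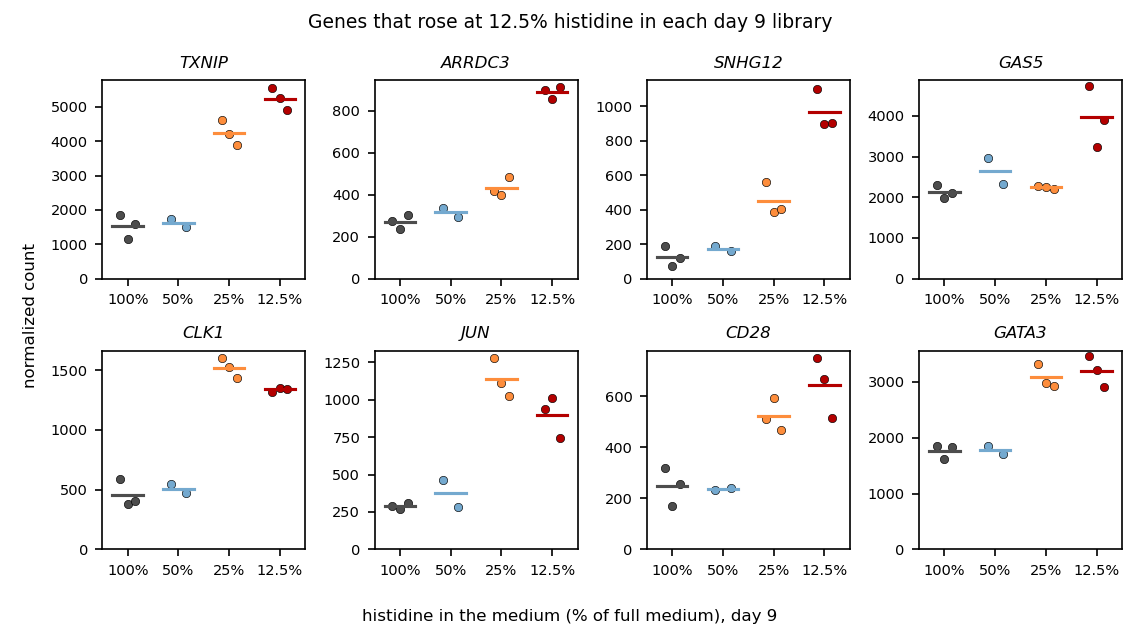
Each point is 1 day 9 library and each bar its group mean, with normalized count on the y axis and histidine (% of full medium) on the x axis, for 8 genes that rose at 12.5%. TXNIP, ARRDC3, SNHG12 and GAS5 are highest at 12.5% with no overlap with 25%, and CD28 and GATA3 overlap between 25% and 12.5%. The CLK1 and JUN libraries at 25% lie above those at 12.5%, by differences that did not pass the test (adjusted p = 0.667 and 0.181).

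Targets of FOXO factors and other genes of resting cells rose in part. Of 22 tested 9 rose and none fell (median 0.26). The list median per library was 0.28, 0.34 and 0.23 at 12.5% and was higher at 25%, at 0.62, 0.54 and 0.51. Directly against 25%, 1 member was higher at 12.5% and 4 were lower, beside 2.4% and 4.42% of all genes tested. TXNIP, which limits glucose uptake and binds thioredoxin, was at 1839, 1154 and 1595 normalized counts in full medium and 5562, 5266 and 4895 at 12.5% (log2 change 1.80 ± 0.11 SE, adjusted p = 4.03e-10). ARRDC3, an arrestin-domain protein of the same family, was at 273, 235 and 304 against 899, 856 and 913 (log2 change 1.72 ± 0.12 SE, adjusted p = 1.46e-09). Neither overlapped between groups. PIK3IP1, an inhibitor of phosphoinositide 3-kinase, changed by 1.05, BTG1, an antiproliferative gene, by 0.80 and YPEL5 by 0.67. IRS2, an adaptor of insulin signalling, changed by 1.70 (adjusted p = 0.00555) and lost its call without 100% replicate 3 (1.14, adjusted p = 0.0576). In the MYC and MAX network 3 of 10 rose and none fell, beside 9.35% and 11.5% of all genes tested. MXD1, which competes with MYC for MAX, was at 488, 376 and 507 against 1127, 1125 and 981 (log2 change 1.25 ± 0.10 SE, adjusted p = 1.46e-08), and MXD4 changed by 0.54. MYC itself was at 11348, 10868 and 11016 against 13036, 12002 and 11214 (log2 change 0.12 ± 0.08 SE, adjusted p = 0.301), and the groups overlapped.

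Genes of fast signalling went in both directions. Of 22 immediate early and MAPK feedback genes 5 rose and 1 fell (median 0.12), beside 9.35% and 11.5% of all genes tested. The list median per library was 0.17, 0.11 and 0.13 at 12.5% and higher at 25%, at 0.39, 0.33 and 0.30. JUN, a subunit of AP-1, was at 289.6, 272 and 311 normalized counts in full medium and 938, 1011 and 743 at 12.5% (log2 change 1.61 ± 0.15 SE, adjusted p = 6.51e-08), and IER3 changed by 1.70. SPRY2, an inhibitor of receptor signalling, changed by 0.96, while DUSP6, a phosphatase of ERK, fell by 0.48 on the log2 scale. Of 17 NF-kB genes 3 rose and 4 fell, beside 9.35% and 11.5% of all genes tested. NFKB1 was at 1592, 1722 and 1740.2 against 908, 1089.7 and 896 (log2 change -0.81 ± 0.11 SE, adjusted p = 9.6e-06) and NFKB2 changed by -0.91, whereas RELA, the partner that carries the activation domain, rose by 0.42 on the log2 scale. Among 26 interferon and antigen presentation genes 7 fell and 2 rose (median -0.14), beside 11.5% and 9.35% of all genes tested. Only 1 rose without 100% replicate 1 or 3. HLA-B and HLA-E, heavy chains of class I, changed by -1.13 and -0.76 and HLA-C fell too, and since these genes are alike and vary between people, reads may be split among them. MX1, an interferon target, changed by -0.94.

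The line's T-lineage markers were present in both groups. The 12 markers added up to between 48890 and 56053 normalized counts in the 6 libraries, and none was at 0. CD3E, of the T-cell receptor complex, was at 15351, 12923 and 14822 in full medium and 15339, 14383 and 13734 at 12.5% (log2 change 0.01 ± 0.10 SE, adjusted p = 0.95). NOTCH1, the receptor most often mutated in this leukaemia, was at 9726, 8718 and 9751 against 8008, 9539 and 8213 (log2 change -0.13 ± 0.09 SE, adjusted p = 0.33), and its target HES1 had a change of -0.17 ± 0.09 SE (adjusted p = 0.198). The groups overlapped for CD3E and NOTCH1. Of 16 genes of NOTCH and its targets 4 rose and none fell (median -0.11), beside 9.35% and 11.5% of all genes tested. The change was negative in 11 of the 16, none of them past the threshold. Of the 4 that rose, IGF1R, a growth factor receptor, changed by 0.63. The other 3, TRIB2, RBPJ and SHQ1, each lost their call without one or more libraries, so that 2 rose without 100% replicate 1 or 12.5% replicate 1 or 2 and 1 without 100% replicate 3.

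Transcription factors of the T lineage rose more than they fell. Of 23 tested 7 rose and 3 fell (median 0.27), beside 9.35% and 11.5% of all genes tested. The list median per library was 0.22, 0.25 and 0.07 at 12.5% and alike at 25%, at 0.24, 0.21 and 0.20. GATA3, a master factor of early T cells, was at 1851, 1611 and 1838 normalized counts in full medium and 3464, 3211 and 2913 at 12.5% (log2 change 0.85 ± 0.09 SE, adjusted p = 2.59e-07). BACH2, a repressor of effector genes, was at 297, 223 and 306 against 511, 563 and 485 (log2 change 0.92 ± 0.13 SE, adjusted p = 1.35e-05), and ETV6 changed by 0.77. HHEX, a homeobox gene active in early T-cell leukaemia, was at 39.8, 49.4 and 49.7 against 12.1, 8.97 and 9.6 (log2 change -2.08 ± 0.31 SE, adjusted p = 3.91e-05). It lay lower in each 12.5% library than in any in full medium, opposite to GATA3. ID3, an inhibitor of E proteins, changed by -0.90.

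Among 31 genes of the receptor complex and surface antigens 4 rose and 6 fell (median -0.07), beside 9.35% and 11.5% of all genes tested. After upper-quartile rescaling 7 rose. CD28, the costimulatory receptor, was at 318, 172 and 258 normalized counts in full medium and 749, 666 and 516 at 12.5% (log2 change 1.39 ± 0.20 SE, adjusted p = 2.61e-05). LAT, an adaptor under the receptor, changed by 0.91. Among the genes of immature thymocytes DNTT, the enzyme that adds bases at receptor gene joints, was at 316, 407 and 344 against 156, 144 and 97.5 (log2 change -1.44 ± 0.18 SE, adjusted p = 3.8e-06), and RAG2, of the recombinase, changed by -0.93. CD4 and CD7 changed by -0.89 and -0.85.

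Markers of myeloid, erythroid and epithelial cells were scarce, while several of those listed for B cells, fibroblasts and NK cells were present. KRT7, KRT19, S100A9, ALAS2 and COL1A2 were at 0 in all 6 libraries, and PAX5 was at no more than 2.86. CD79A, part of the B-cell receptor, was high in full medium at 17694, 14235 and 16956 normalized counts and at 11255, 10158 and 9468 at 12.5% (log2 change -0.66 ± 0.14 SE), and CD79B, PDGFRB and PRF1 changed by -1.12, -0.80 and -1.21. Of 6 tested B-cell markers 3 fell, and the third, EBF1, lost its call without 100% replicate 1 (adjusted p = 0.0611) or 3 (0.189) or 12.5% replicate 1 (0.114) or 3 (0.131). BLK, also a B-cell marker, was between 1640 and 1772 in the 6 libraries, and the fibroblast markers VIM and FN1 between 12933 and 15432 and between 400 and 681. The summed B-cell markers were between 16280 and 19889 in full medium and between 11356 and 13182 at 12.5%. The summed markers of myeloid cells were between 9.45 and 73.4 and of epithelial cells between 11.2 and 33.9 in the 6 libraries, with ranges of the 2 groups that overlapped.

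Histone genes rose in a few members that make polyadenylated RNA. Of 10 such histones 3 rose and none fell, beside 9.35% and 11.5% of all genes tested. After quantile normalization 5 rose and 1 fell. H2BC12, which codes for a core histone, was at 222, 321 and 250.5 normalized counts in full medium and 747, 695 and 635 at 12.5% (log2 change 1.40 ± 0.17 SE, adjusted p = 3.81e-06), and H3-3B changed by 0.53. Of 46 replication-dependent histones 5 rose and 2 fell (median -0.37), beside 9.35% and 11.5% of all genes tested. The number that rose was 3 without 100% replicate 1 or any 12.5% library. None fell without 100% replicate 2 or 3 or 12.5% replicate 1 or 2. H2AC6 was at 76.7, 80.4 and 73.5 against 436, 339 and 398 (log2 change 2.33 ± 0.26 SE, adjusted p = 1.11e-06) and H3C6 changed by 2.27. These genes are near-identical to each other, so their single levels are uncertain. Of 12 RNAs without a poly(A) tail none passed in limma, and 0 were at an unadjusted p under 0.05.

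The genes with the largest changes came from many families. They were taken as the 12 largest rises and 12 largest falls among genes whose higher group averaged 50 or more and whose libraries did not overlap. Among the rises were CTSG, a granule protease of myeloid cells, at 129.7, 119.6 and 148 normalized counts in full medium and 776, 572 and 608 at 12.5% (log2 change 2.28 ± 0.18 SE, adjusted p = 7e-09), and GDAP1L1 at 16.2, 10.1 and 10.8 against 120.5, 96.2 and 88 (log2 change 2.95 ± 0.43 SE, adjusted p = 3.07e-05). That their libraries did not overlap was a condition of this choice and adds nothing for these genes. FUT1, a fucosyltransferase, MMP9, a matrix protease, and CNTN4, an adhesion molecule, changed by 2.92, 2.81 and 4.92, and with a pseudocount of 8 the change of CNTN4 was 2.75. POLR2A, the large subunit of RNA polymerase II, was listed at 14.5, 16.3 and 36.1 against 107, 145 and 112 (log2 change 2.50 ± 0.60 SE), levels far under those usual for a gene that every cell needs, so its level is uncertain. MCF2L changed by 2.34, or 1.51 (adjusted p = 0.017) without 100% replicate 1, and the call of CDRT4 (3.25) ended without 100% replicate 3 (1.90, adjusted p = 0.134) or 12.5% replicate 3 (2.86, adjusted p = 0.066).

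Among the falls, UNC5B, a netrin receptor, was at 160.3, 106 and 152 normalized counts in full medium and 34.5, 30.4 and 17 at 12.5% (log2 change -2.35 ± 0.26 SE, adjusted p = 6.97e-07). EPHB1, an ephrin receptor, was at 56.1, 52.2 and 55.5 against 9.58, 15.4 and 10.7 (log2 change -2.14 ± 0.49 SE, adjusted p = 0.00274). Both code for guidance receptors of the cell surface, as GPC3 (log2 change -2.66) codes for a surface proteoglycan. CKAP4 and PACSIN3 changed by -2.45 and -2.40. The calls of ADGRG1 (-2.30), ATP8B3 (-2.19) and SEPTIN5 (-2.22) each ended with a library left out. For ADGRG1 it was 12.5% replicate 1 (-1.38, adjusted p = 0.0655). For ATP8B3 it was 100% replicate 2 (adjusted p = 0.0524) or 3 (0.058), and for SEPTIN5 100% replicate 1 (0.105) or 3 (0.067) or 12.5% replicate 3 (0.123).

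The step from 25% to 12.5% histidine was tested directly on day 9. In limma 1282 genes differed (6.82%), 452 higher at 12.5% and 830 lower, and 35.3% of calls were higher against 46.4% after upper-quartile rescaling and 47.7% after quantile normalization. EGLN3 was lower at 12.5% than at 25%, going from 341, 345 and 417 normalized counts at 25% to 174, 138 and 187 at 12.5% (log2 difference -1.14 ± 0.17 SE, adjusted p = 8.81e-05). ARRDC3 was higher at 12.5%, going from 419, 399 and 483 to 899, 856 and 913 (log2 difference 1.04 ± 0.12 SE, adjusted p = 4.95e-06). The groups did not overlap for either gene. By contrast DHCR7 did not differ past the threshold, with 506, 522 and 549.9 at 25% (log2 difference -0.27 ± 0.15 SE, adjusted p = 0.323), nor did JUN (-0.35, adjusted p = 0.181), CLK1 (-0.18, adjusted p = 0.667) or GATA3 (0.05, adjusted p = 0.793). The inhibitor CDKN1B was lower than at 25% by -0.52 (adjusted p = 0.000869), and NFKB1 and NFKB2 by -0.77 and -0.81.

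Ranked by size against 25%, PIF1, a DNA helicase, and PIMREG, a mitotic regulator, were lower with log2 differences of -1.95 each, and PIF1 was at 479.8, 659 and 597 normalized counts at 25% and 173, 129 and 145 at 12.5%. FUT1 was higher by 1.76 and ALDH3B2, an aldehyde dehydrogenase, by 1.75. The remaining largest differences lost their calls when a library was left out. JAK3 (3.27) lost it without 12.5% replicate 1 (adjusted p = 0.0793), 2 (0.0543) or 3 (0.142) or 25% replicate 1 (1.48, adjusted p = 0.215). CNTN4 (2.61) lost it without 12.5% replicate 1 (0.0583) or 2 (0.081) or 25% replicate 3 (0.114), and CCDC62 (1.57) without 12.5% replicate 3 (0.108) or 25% replicate 1 (0.0566) or 3 (0.109). ADGRG1 (-2.12) lost it without 12.5% replicate 1 (-1.20, adjusted p = 0.186) or 25% replicate 1 (0.0647), 2 (0.0581) or 3 (0.119), and the histone gene H4C3 (-2.96) without 25% replicate 3 (0.0808). Without the keratin-high libraries only 1 library at 25% was left and 248 genes passed, of which 228 were among the 1282. EGLN3, ARRDC3, PLK1, CDC20, CCNB1, CDKN1B, PIF1 and PIMREG kept their calls there, and FUT1 (adjusted p = 0.13) and ALDH3B2 (adjusted p = 0.0981) did not. The part of the keratin-high libraries in the 25% values was not tested further.

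Whether the response on day 9 differed from that on day 6 was tested as the difference of the 2 changes, over 12 libraries with none shared. On day 6 the summed keratins were 383, 1406 and 3.44 in full medium and 5.44, 60.3 and 43.8 at 12.5%. Without the keratin-high libraries 1 full-medium library of day 6 was left. The 5.8S rRNA of day 6 was at 153, 406 and 1181 in full medium and 88.2, 79.8 and 74.8 at 12.5%. In limma 12 genes passed (0.0638% of those tested), 8 with a more positive change on day 9 (0.0426%) and 4 with a more negative one (0.0213%). An unadjusted p under 0.05 was found for 1887 genes, and 6 of the 12 were also among the genes called on day 9. With keratin as a covariate 2 of the 12 kept their calls, and with 5.8S rRNA as a covariate all 12 did, among 41. The part of keratin and 5.8S rRNA in the day differences was not tested further. RGS1, a regulator of G protein signals, was at 486, 481 and 521 normalized counts in full medium and 799, 996 and 1217 at 12.5% on day 6, and at 802, 866 and 866 against 791, 713 and 887 on day 9, with a difference of -1.08 ± 0.19 SE (adjusted p = 0.025). RASSF2, of a family of RAS-linked suppressors, was at 596, 619 and 581 against 606, 635 and 612 on day 6 and 656, 711 and 632 against 384, 435 and 411 on day 9 (difference -0.74 ± 0.14 SE, adjusted p = 0.0435). RGS1 thus stood higher at 12.5% on day 6 and overlapped on day 9, and RASSF2 overlapped on day 6 and fell on day 9. The call of RGS1 ended in 8 of 12 fits with 1 library left out (adjusted p up to 0.105) and that of RASSF2 in all 12 (up to 0.158). Of the gene lists, none of the sterol, replication or heat shock lists had a member past this threshold, and the snoRNA hosts had a median change of 0.59 on day 9 and -0.01 on day 6, with no member past the threshold for the difference. In a simulation with 200 of 18799 genes changed, differences of 1 on the log2 scale were found in 59.7% and of 0.5 in 10.4%. In the data 12 genes passed, fewer than were changed there, so these rates need not hold for the data. Differences of 1 or less between the days can therefore be missed.

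**Figure D5:**
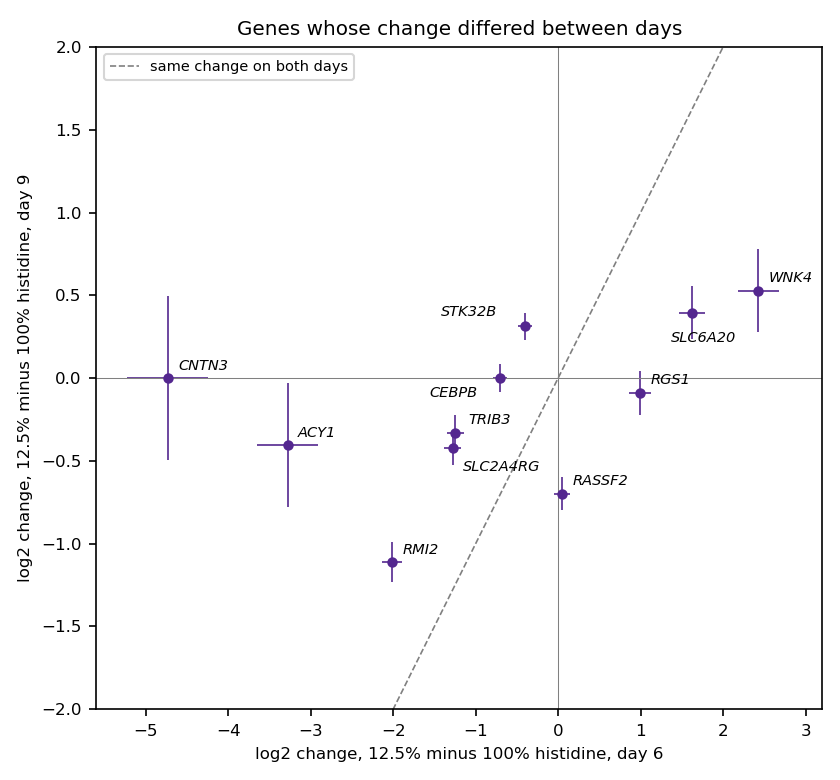
Log2 change at 12.5% against 100% histidine on day 6 (x axis) and on day 9 (y axis) for 11 genes whose changes differed between the days; bars are 1 SE and the dashed line marks equal changes. STK32B lies below 0 on day 6 and above 0 on day 9, and RMI2 is lower on both days, by less on day 9.

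The histidine content of the encoded proteins was described across genes, which are not independent replicates. Codons were counted in 1 GENCODE 29 coding sequence per gene for 12544 tested genes. Histidine made up a median of 2.344% of codons in 1353 genes that rose, 2.531% in 2058 that fell and 2.459% in 9133 that were not called. With coding sequences of at least 100 codons the medians were 2.348%, 2.536% and 2.465%. The CAC codon made up 55.23%, 58.81% and 55.59% of the histidine codons, summed over the genes of each class, in the same order. Among called genes rich in histidine both directions were present, and these examples were chosen after their values were seen. ZNF664, a zinc finger gene with 9.20% histidine, fell by 0.45 on the log2 scale, and ZNF880, another with 8.32%, rose by 1.22. SLC39A6, a zinc carrier with 9.14%, fell by 0.61.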

How the data were processed

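DND-41 cells were grown in media of graded histidine, and 1 µg of total RNA went into each strand-specific library, per the labels' protocols. The authors deposited 1 table of signal values, which are counts per gene scaled by size factors, and the submitters' processing notes name kallisto 0.50.1, DESeq2 1.44.0, FastQC 0.11.9 and GRCh38. Which annotation was used and how strand was set is not given in the sources used here. Such scaling hides a change in RNA content per cell, and pseudoalignment divides reads between near-identical genes. Groups follow the titles. The series text gives earlier days than the sample labels, and the labels' days are used. A no-histidine library (replicate 1) with day 6 in its title and day 9 in its time label was kept at day 6.

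Of the values under 20 only 37.8% to 76.2% per library were whole multiples of its step (tolerance 0.05), so reads were not recovered and no count test was run. Depth is known only as totals of normalized counts. The filter asked for a value of 10 or more in 2 or more libraries, which 18799 of 31919 genes met. On the log2 scale, after adding 1, limma 3.58.1 (R 4.3.3) was run with a mean-variance trend, 1 mean for each of 9 groups and 16 residual degrees of freedom. P-values are two-sided, with Benjamini-Hochberg adjustment per contrast and a threshold of 0.05. Contrasts were 12.5% against 100% and against 25% on day 9, and the difference of the changes on day 9 and day 6. In simulated data for 12.5% against 100% on day 9, 200 of 18799 genes were changed, all averaging 20 or more. Of those changed by 0.5, 1 and 2 on the log2 scale 37.3%, 82.1% and 95.5% were recovered, and 2.05% of calls were false. In the data 3916 genes were called, many more than were changed here, so these rates need not hold for the data. The procedure was also tested on simulated data for the other contrasts.

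Members, gene lists (50 with the marker lists) and tests were chosen with earlier results of these data known, so no list is independent evidence of its direction. Genes were named by size: the 12 largest each way (higher group averaging 50 or more, a symbol, no overlap), the 5 largest each way for the other contrasts, up to 6 members per list among those past the threshold, members with a defining role, and HARS1, ASNS, DDIT3, TRIB3, CHAC1, SREBF1, SREBF2, HES1, CDKN1A, CDKN1B, MKI67, CD3E and NOTCH1. Other members named were chosen after their values were seen. Most list members whose call ended with a library left out are unnamed and stand in the counts. A few genes named by this rule were left out of the text. Promoters are from the RefSeq table of GRCh38.p14 and were matched by symbol for 11453 tested genes. Coordinates and coding sequences are from GENCODE 29, which may not be the authors' annotation. Plots used Python 3.11.15 and matplotlib 3.10.9.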

Additional observations from a re-analysis of the deposited data

Results flagged for a closer look

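For 12 genes the change at 12.5% against 100% histidine differed between day 9 and day 6 (limma, test of the difference of the log2 changes, Benjamini-Hochberg adjusted over 18799 genes), and 11 of them are described here, each looked at for how far it rests on single libraries. Differences are day 9 minus day 6, with 3 libraries in each of the 4 groups.

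CNTN3, an adhesion gene of low level, differed by 4.74 (adjusted p = 0.0065). It was listed at 0 in all 3 libraries at 12.5% on day 6 and at 6.33, 17.7 and 28.6 on day 9, so its difference depends on the pseudocount (2.11, adjusted p = 0.0723, with 8). It kept its call in all 12 fits with 1 library left out and lost it without the keratin-high libraries (adjusted p = 0.186).

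Genes whose change was more negative on day 6 were ACY1, an aminoacylase, with a difference of 2.87 (adjusted p = 0.0332), TRIB3 with 0.91 (0.0204), RMI2 with 0.90 (0.0435), SLC2A4RG with 0.86 (0.025) and CEBPB with 0.70 (0.025). STK32B, a kinase lower at 12.5% on day 6 and higher on day 9, differed by 0.72 (0.0204). Of these, TRIB3, RMI2 and SLC2A4RG also passed as lower on day 9, while ACY1 (adjusted p = 0.5) and CEBPB (adjusted p = 0.997) did not. TRIB3 and CEBPB are both ATF4 targets. TRIB3 was at 10247, 10111 and 10669 normalized counts in full medium and 3986, 4387 and 4745 at 12.5% on day 6, and at 8346, 6711 and 7328 against 6453, 5412 and 5909 on day 9. The groups were apart on both days, by less on day 9.

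In the other direction WNK4, a kinase of ion transport, differed by -1.90 (0.0332), SLC6A20, a carrier of proline, by -1.23 (0.0332), RGS1 by -1.08 (0.025) and RASSF2 by -0.74 (0.0435). Of the 12 fits with 1 library left out, the call was kept in 7 for STK32B, 6 for TRIB3, 5 for SLC2A4RG, 4 for RGS1, 3 for CEBPB, 2 each for ACY1, SLC6A20 and WNK4, 1 for RMI2 and 0 for RASSF2. The highest adjusted p among these fits was between 0.0997 and 0.158 for the 10 genes.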

How the results depend on the processing

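The count against full medium (3916) stayed between 2980 and 4650 over all alternatives and between 2980 and 3495 with 1 library of the compared groups left out, with 1286 to 1601 higher and 1657 to 1911 lower, and was 4037 (1799 higher, 2238 lower) without the no-histidine library of conflicting day. Against 25% (1282) leaving out 1 such library gave 738 to 1005, with 222 to 397 higher and 491 to 655 lower, and 1396 (474 higher, 922 lower) without that no-histidine library. Library weights gave 1935 (722 higher), the keratin covariate 681 (231 higher, 450 lower), the 5.8S rRNA covariate 840 (211 higher) and the fit on the compared groups 865 (225 higher). Without the keratin-high libraries 248 passed (86 higher, 162 lower). The share higher against 25%, 35.3%, was 46.4% after upper-quartile rescaling and 47.7% after quantile normalization, 25.1% with the 5.8S rRNA covariate and 26% on the compared groups. For the difference between the days (12) leaving out 1 library gave 2 to 19 (2 to 15 higher, 0 to 4 lower). Library weights gave 133 (72 higher, 61 lower), the 5.8S rRNA covariate 41 (32 higher, 9 lower), no mean trend 3 (3 higher, 0 lower), the keratin covariate 2 (2 higher, 0 lower), the compared groups 1 (1 higher, 0 lower), no keratin-high libraries 3 (1 higher, 2 lower) and quantile normalization 7 lower. The cause of these moves was not tested, beyond the fewer libraries in some fits.

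With the replicate number as a block 3814 genes passed against full medium, 1237 against 25% and 10 for the difference between the days. Same-numbered libraries did not deviate together (correlations of -0.01887, 0.006842 and 0.0181), so the numbers give no pairing. No count test was possible on these normalized values, and depth per library is unknown, which limits what can be said of genes at low values.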
